A study of Mus musculus with 36 samples.

Results

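The genes described here encode scaffolds, kinases, phosphatases and adhesion proteins of the postsynaptic side of synapses, mainly excitatory ones. The list was given by name and holds 37 genes. All 37 were found among the 50559 gene symbols of the hippocampal count table, and all 37 passed the filter on low counts that left 25382 genes for testing. By role they are 16 scaffolds and adaptors (Dlg1 to Dlg4, Dlgap1 to Dlgap4, Shank1 to Shank3, Homer2, Homer3, Lrrc7, Cnksr2 and Baiap2), 9 genes of calcium-dependent kinases and phosphatases and their partners (Camk2a, Camk2b, Camk2d, Camk2g, Ppp3ca, Ppp3r1, Ppp1r9b, Nrgn and Akap5), 3 exchange factors for small GTPases (Iqsec1, Iqsec2 and Kalrn), 5 adhesion proteins (Nlgn1 to Nlgn3, Lrrtm1 and Lrrtm2), 3 auxiliary subunits of AMPA receptors (Cacng2, Cacng3 and Cacng8) and Synpo, which organises the spine apparatus.

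Messenger RNA was sequenced in bulk from 36 hippocampal libraries of female mice aged 6 months. The mice were wild type (WT), heterozygous for human APP with the Swedish and Indiana mutations (line J9), heterozygous for human tau P301S (line PS19), or carried both transgenes (APP/Tau), all on a C57BL/6 background. Every mouse, WT included, also carried PV_Cre and 1 copy of RiboTag, which tags ribosomes of parvalbumin interneurons, but the RNA was the input fraction of both hippocampi and was not selected for the tag. Naive mice stayed in the home cage (6 WT, 5 APP, 4 Tau and 6 APP/Tau libraries), and trained mice learned the hidden platform of the Morris water maze over 5 days with 6 trials a day, took a probe test 24 hours later and were killed 2 hours after the probe (5 WT, 3 APP, 4 Tau and 3 APP/Tau libraries). All mice had been handled on 3 days before. The tau transgene is driven by the mouse Prnp promoter and the APP transgene by the PDGF-B promoter, both active in many neurons, so neither is limited to the excitatory spines where most of these proteins act.

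Under the membrane of an excitatory spine, proteins of the Dlg family hold AMPA and NMDA receptors in place, Dlgap and Shank proteins link them to Homer and to actin, and neuroligins and Lrrtm proteins reach across the cleft to presynaptic neurexins. Calcium that enters through NMDA receptors binds calmodulin, which activates the kinase CaMKII and the phosphatase calcineurin; these act in opposite directions on AMPA receptors, CaMKII in long-term potentiation and calcineurin in long-term depression. In the hippocampus these proteins are studied for their part in spatial learning and for the loss of synapses in models of amyloid and tau pathology.

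Library totals ran from 69.2 to 124.8 M counts, and the lowest count of any of the 37 genes in any library was 2341, so counting error was small beside the spread between libraries. The library labelled Tau trained replicate 4 had a Prnp level of 846 counts per M total counts (CPM), inside the range of 728 to 879 in the 19 libraries not labelled Tau and below the 1423 to 2142 of the other 16 labelled Tau, whose transgene is built on the mouse Prnp promoter. The summed count of 3 transcripts that went with the Tau label (Lamr1-ps1, Gm32754 and 4930590L14Rik, chosen after their values were seen) was 0 in it, 0 to 2 in the libraries not labelled Tau and 174 to 426 in the other 16. It is called the library labelled Tau trained replicate 4 and is kept under its label. For the comparisons of Tau trained libraries and of Tau carriers some values without it are given, and all others include it. This library also enters the averages over APP and over training, where 0 of the 37 genes passed with and without it. WT trained replicate 4 stood apart in striatal markers, whose summed level across WT trained libraries ran from 157 to 570 CPM against 151 to 201 CPM in the other groups. The hippocampal label was checked with 10 pyramidal and 8 dentate granule markers, none of which was at 0 in any library. In bulk RNA, fewer cells of a type and less RNA per cell cannot be told apart, which holds for every comparison that follows.

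Levels per kilobase of exon differed widely among the genes. In WT naive libraries Nrgn, the calmodulin-binding protein neurogranin, had the highest level at 755 ± 91.7 CPM per kb (SD, n = 6). Camk2a, the alpha subunit of CaMKII whose mRNA is carried into dendrites, followed at 463 ± 49.8 CPM per kb. Ppp3r1, the regulatory subunit of calcineurin, came after it at 350 ± 21.4 CPM per kb. Ppp1r9b, the spine protein spinophilin that holds protein phosphatase 1 at actin, was at 232 ± 15.5 CPM per kb and the catalytic calcineurin subunit Ppp3ca at 194 ± 17.3 CPM per kb. Camk2b, the CaMKII subunit that binds actin, was at 128 ± 7.05 CPM per kb.

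Scaffolds and adhesion genes lay below the genes just named on the same scale. Several lay above other genes of the kinase and phosphatase group, such as Camk2g at 28.2 and Akap5 at 12.5 CPM per kb. The central scaffold Dlg4 (PSD-95) was at 57.1 ± 2.95 CPM per kb, and Baiap2 (IRSp53, which ties the scaffold to actin) at 55.6 ± 5.79 CPM per kb, a difference within their SDs. Neuroligin 2, found mainly at inhibitory synapses, was at 46.7 ± 1.82 CPM per kb, above neuroligin 1 of excitatory synapses at 8.81 ± 0.692 CPM per kb. Camk2d, the CaMKII subunit that is more abundant in heart, was lowest at 2.91 ± 0.681 CPM per kb. The lengths come from an annotation that may differ from the one behind the counts. Homer3 shares 25.4% of its exon length with Ddx49 on the opposite strand and Nlgn1 shares 9.16% with A830092H15Rik, and part of Nlgn3 overlaps Gm21986 on the same strand, so their counts are less certain.

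The 37 genes varied little between libraries of a group. The SD of log2 CPM within groups had a median of 0.13 over the 37 genes, against 0.25 over all genes tested. Dlgap4, one of the proteins that bridge PSD-95 and Shank, varied least with an SD of 0.078. Camk2d varied most with 0.41, and Lrrc7 (densin-180, which binds CaMKII) came next with 0.31. Camk2d was at 129 CPM in WT trained replicate 4 and 132 CPM in Tau naive replicate 3, and between 36.4 and 90.0 CPM in the other 34 libraries.

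Baiap2 fell in Tau carriers, and it was the only one of the 37 genes to pass edgeR's quasi-likelihood test in any of the 18 comparisons. Comparing Tau carriers with non-carriers, averaged over APP state and training, its log2 change was -0.20 ± 0.045 (SE), or 13.2% lower, with an adjusted p of 0.0221 (edgeR's quasi-likelihood test with Benjamini-Hochberg adjustment over all genes). Of all genes tested, 0.835% passed in this comparison (0.11% lower and 0.725% higher). The gene was lower in Tau carriers in 3 of the 4 pairs of groups that make up the average; the pair that went the other way was APP/Tau naive at 271 ± 14 CPM (n = 6) against APP naive at 265 ± 27.7 CPM (n = 5).

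The values of Baiap2 by library show where the difference lay. In naive WT mice it had a lowest value of 243, a median of 271 and a highest value of 314 CPM. In naive Tau mice the 4 libraries were at 243, 205, 246 and 211 CPM, overlapping the low end of WT. In naive APP mice the 5 libraries were at 309, 251, 252, 273 and 238 CPM, within the WT range apart from the lowest. In naive APP/Tau mice the lowest, median and highest values were 252, 269 and 288 CPM, all inside the WT range.

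After training the WT libraries of Baiap2 were at 341, 296, 320, 355 and 321 CPM. The 4 libraries labelled Tau trained were at 239, 293, 256 and 274 CPM, all below every WT trained library, with a log2 difference of -0.30 ± 0.087 and an adjusted p of 0.0975. Without replicate 4, the library at 274 CPM that goes against its label in these marks, the difference was -0.31 ± 0.096 with an adjusted p of 0.147. The 3 APP trained libraries were at 318, 326 and 298 CPM, inside the WT range. The 3 APP/Tau trained libraries were at 292, 285 and 213 CPM, all below every WT trained library, with a log2 difference of -0.31 ± 0.095 and an adjusted p of 0.237. Without APP/Tau trained replicate 3, the lowest of them, the difference was -0.18 with an adjusted p of 0.722.

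**Figure D1:**
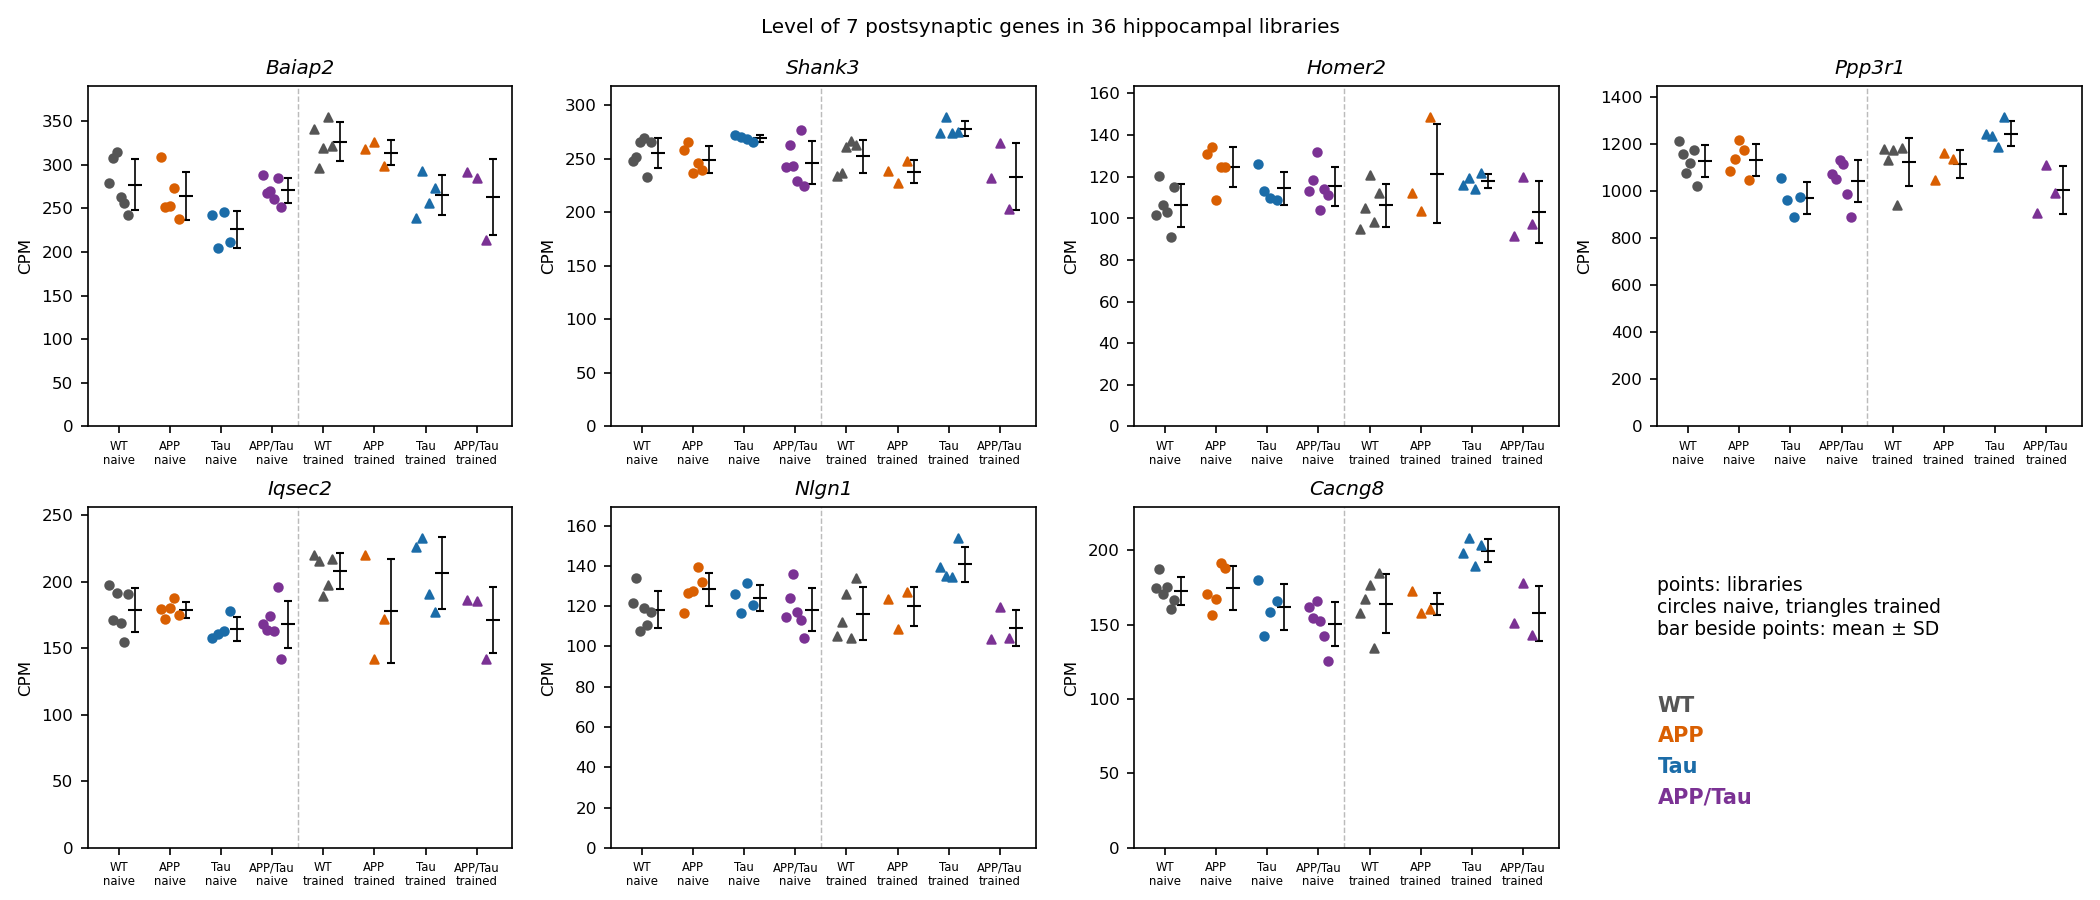
Level in CPM (vertical axis, from 0) of 7 postsynaptic genes in each of the 36 libraries, by genotype and training (horizontal axis); circles are naive and triangles trained libraries, and the bar beside each group is its mean ± SD. Baiap2 lay at 239 to 293 CPM in Tau trained and 296 to 355 CPM in WT trained libraries, and Ppp3r1 at 893 to 1056 CPM in Tau naive and 1188 to 1317 CPM in Tau trained libraries.

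The promoter of Baiap2 is shown because it is the one gene of the list that passed the test, and that of Ppp3r1 because it came nearest to passing with training in Tau mice. Both are the 250 bases before the RefSeq start site in GRCm38.p6; the counts were made on mm39. They lie on the plus strand at chr11:119942842-119943091 (Baiap2) and chr11:17159048-17159297 (Ppp3r1), and capitals mark GGGCGG (the GC box bound by Sp1) or TGACG (the core of the cAMP response element) on either strand, read 5′ to 3′.
Baiap2: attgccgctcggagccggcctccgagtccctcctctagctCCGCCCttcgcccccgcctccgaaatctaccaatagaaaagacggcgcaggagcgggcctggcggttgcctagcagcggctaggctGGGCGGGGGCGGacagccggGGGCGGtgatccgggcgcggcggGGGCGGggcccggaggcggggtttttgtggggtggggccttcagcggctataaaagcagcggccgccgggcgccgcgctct
Ppp3r1: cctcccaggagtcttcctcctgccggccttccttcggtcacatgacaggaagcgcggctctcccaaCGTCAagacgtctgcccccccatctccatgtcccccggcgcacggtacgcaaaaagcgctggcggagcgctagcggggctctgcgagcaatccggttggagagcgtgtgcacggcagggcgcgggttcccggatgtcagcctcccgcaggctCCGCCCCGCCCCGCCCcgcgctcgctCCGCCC
The Baiap2 window was 72.8% G and C and held 5 GC boxes, and the Ppp3r1 window was 70.8% G and C and held 4 GC boxes and 1 TGACG. A promoter window was found for 28 of the 37 genes, with 42 windows in all because some genes have several starts. GGGCGG was in 21 of these 42 windows, from 18 genes, against 32.7% of all 32851 windows of the same length. TGACG was in 4 of the 42 windows against 17.8% of all, and the full response element TGACGTCA, which contains it, in 0 of 42 against 1.55% of all. A match describes these letters only.

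Among the other scaffolds, Dlg4 was next in Tau carriers with a log2 change of -0.11 ± 0.029 (adjusted p = 0.0632), and Dlgap4 followed with -0.098 ± 0.028 (adjusted p = 0.0879). Synpo had a change of -0.15 ± 0.044 (adjusted p = 0.0949) and Nrgn of -0.15 ± 0.050 (adjusted p = 0.135). None of these passed with edgeR, and Dlg4, Dlgap4 and Synpo joined Baiap2 when DESeq2 was used, which called 4, and 2.47% of all genes to which it gave an adjusted p. At an unadjusted p under 0.05, 7 of the 37 genes were lower and 0 higher, against 5.87% and 7.29% of all genes. Of the 37 genes 32 had a value below 0, and the median log2 change was -0.043, against -0.0075 over all genes. The 5 genes above 0 were Shank3, Camk2d, Camk2g, Iqsec1 and Nlgn1, and the highest of them was Shank3 at 0.043.

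The Baiap2 call rested on several libraries. It was lost without Tau naive replicate 2 (adjusted p = 0.0540), without APP trained replicate 1 (0.0515) or without APP/Tau trained replicate 3 (0.0507), with log2 changes of -0.19, -0.20 and -0.17. Without the library labelled Tau trained replicate 4 it held at -0.21 with an adjusted p of 0.0213, and without that library and WT trained replicate 4 at -0.20 with 0.0260. In the same comparison 6 of 8 markers of disease-associated microglia were higher at an unadjusted p under 0.05, with a median log2 change of 2.37, as were 8 of 8 oligodendrocyte markers (median 0.36), while 3 of 10 pyramidal markers were lower (median -0.11). The summed levels were 91.4 to 213 CPM in Tau carriers and 89.1 to 120.5 CPM in non-carriers for the microglial list, of which 2 markers were at 0 in a library, 3262 to 5794 and 2853 to 5146 CPM for the oligodendrocyte list, and 632 to 987 and 712 to 1039 CPM for the pyramidal list. The microglial levels were uneven among Tau carriers. The mean log2 level of that list, relative to all 36 libraries, ran from -0.54 to 2.32 in naive Tau, with replicate 2 highest. It ran from -0.56 to 2.99 in naive APP/Tau, -0.85 to 2.09 in trained Tau and -0.33 to 3.08 in trained APP/Tau. The medians of these groups were -0.24, 0.16, 0.17 and 0.00016, in that order. The part of the microglial and oligodendrocyte levels in the result was not tested. With the pyramidal and dentate marker scores as covariates the Baiap2 change was -0.17 with an adjusted p of 0.188, and 0 of the 37 genes passed. Over all alternatives the adjusted p of Baiap2 ran from 0.0024 to 0.188.

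**Figure D2:**
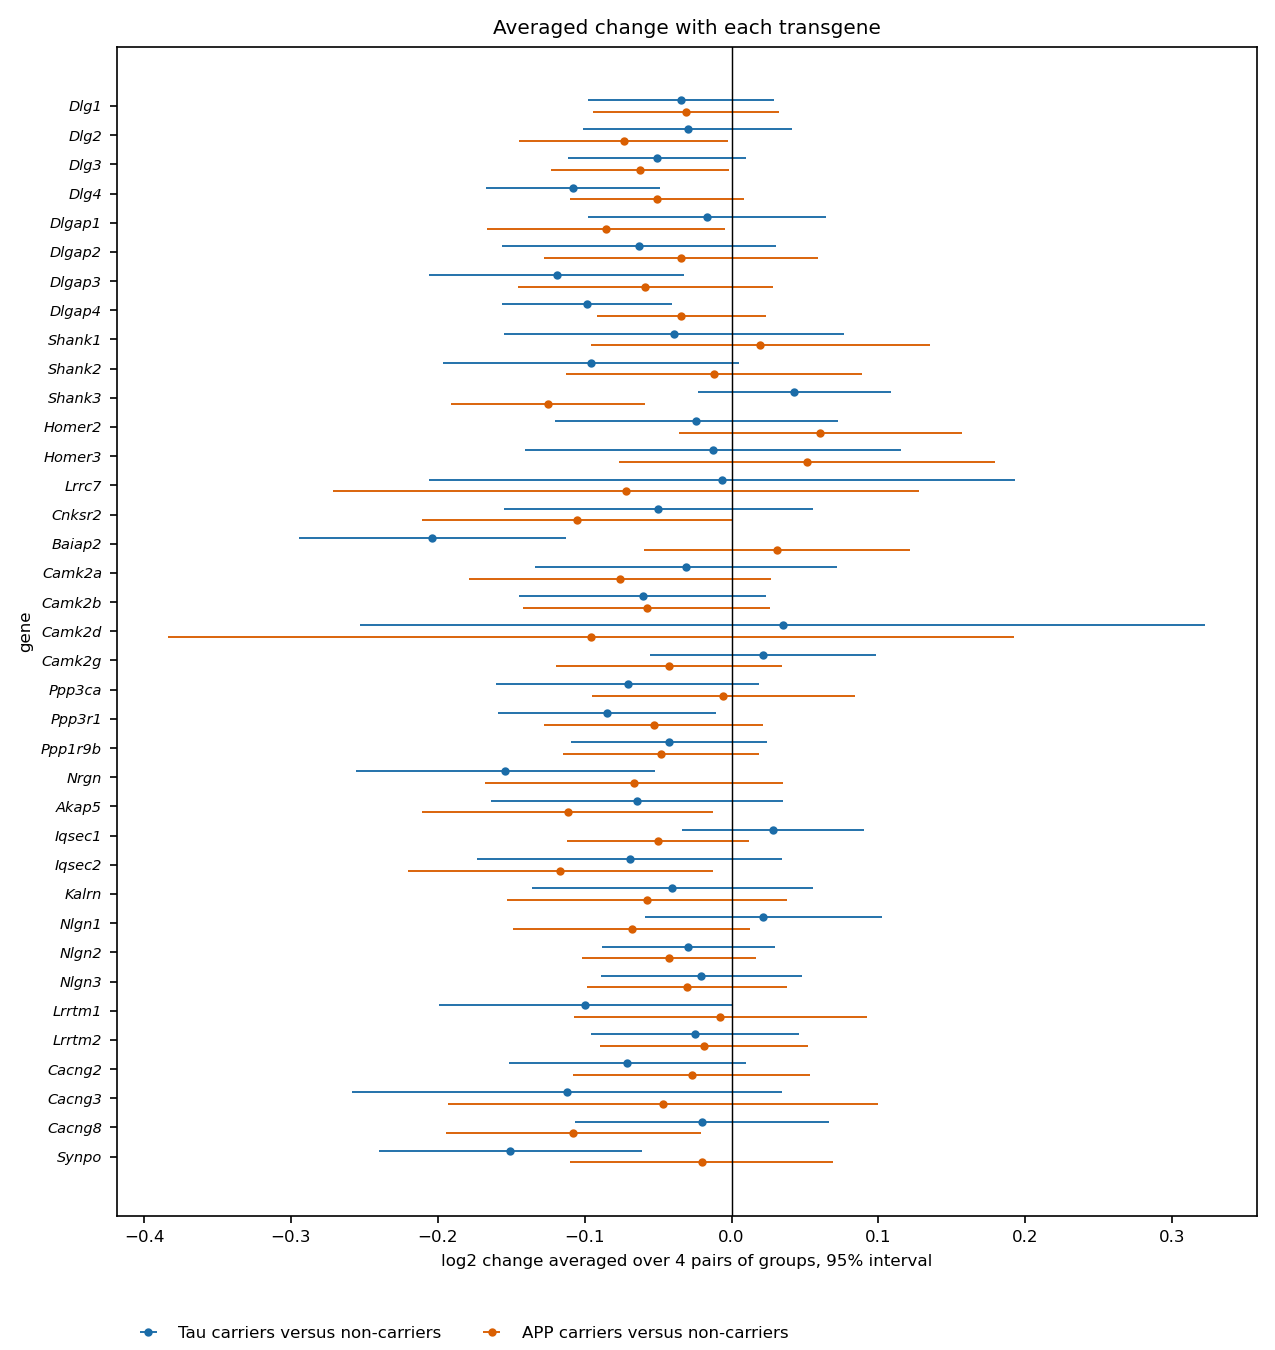
Averaged log2 change (horizontal axis, with its 95% interval) of each of the 37 genes (vertical axis) in Tau carriers against non-carriers (blue) and in APP carriers against non-carriers (orange). Baiap2 sits at -0.20 with Tau and 0.031 with APP, and Shank3 at 0.043 with Tau and -0.12 with APP.

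In naive mice no gene of the list passed the test in Tau mice against WT, where 0.0276% of all genes passed. At an unadjusted p under 0.05, 7 were lower and 0 higher, against 4.44% and 4.87% of all genes. These 7 were Baiap2 (-0.29), the calcineurin subunits Ppp3r1 (-0.22) and Ppp3ca (-0.19), Nrgn (-0.22), Synpo (-0.20), Dlg3 (SAP102, -0.14) and Dlg4 (-0.13), as log2 changes. Their adjusted p ran from 0.377 to 0.506. Over the list the median was -0.058, against -0.00076 over all genes. Neuron markers were low in the same libraries: 3 of 10 pyramidal markers were lower at an unadjusted p under 0.05 and 0 higher (median -0.22), with summed levels of 729 to 816 CPM in naive Tau and 836 to 973 CPM in naive WT, which do not overlap. Of 8 dentate granule markers 4 were lower and 0 higher (median -0.31), with summed levels of 242 to 362 and 345 to 435 CPM. With both marker scores as covariates the median over the 37 genes was -0.012, and without Tau naive replicate 2 it was -0.032.

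Naive APP/Tau mice gave a similar count with another leading gene. None of the 37 genes passed, against 0.067% of all genes, and 5 were lower and 0 higher at an unadjusted p under 0.05, against 3.66% and 3.82% of all genes. Cacng8, the AMPA receptor subunit TARP gamma-8 that is enriched in the hippocampus, had the smallest p. Its values in naive WT had a lowest of 160.2, a median of 173 and a highest of 188 CPM, and in naive APP/Tau a lowest of 125, a median of 153 and a highest of 166 CPM. The groups overlapped, and the log2 change was -0.20 ± 0.071 with an adjusted p of 0.611. The other 4 were Dlg4 (-0.13), Dlg3 (-0.13), Nrgn (-0.22) and Dlgap3 (-0.15), so Dlg3, Dlg4 and Nrgn were in both sets, which share the WT naive libraries.

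In naive APP mice the list sat closest to WT. None of the 37 passed, against 0.0355% of all genes, and 1 was higher at an unadjusted p under 0.05 and 0 lower, against 1.62% and 2.05% of all genes. That gene was Homer2, which links Shank to metabotropic glutamate receptors. Naive WT had a lowest value of 91.1, a median of 105 and a highest of 120 CPM of Homer2, and the 5 naive APP libraries were at 131, 134, 109, 124 and 125 CPM. All but 1 of the APP libraries were above every WT library, with a log2 change of 0.23 ± 0.083 and an adjusted p that rounds to 1. The median over the list was 0.018, and it was -0.0023 without WT naive replicate 5.

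Averaged over Tau state and training, APP carriers had lower values of most of the list, none past the test. Of the 37 genes 33 were below 0, with a median of -0.050 against 0.0052 over all genes. None passed, where 0.0985% of all genes did, and 7 were lower and 0 higher at an unadjusted p under 0.05, against 4.54% and 5.41% of all genes. Shank3, the scaffold whose loss causes Phelan-McDermid syndrome, led with -0.12 ± 0.032 (adjusted p = 0.173), followed by Cacng8 (-0.11), the kinase anchor Akap5 (-0.11), the Arf exchange factor Iqsec2 (-0.12), Dlgap1 (-0.086), Dlg2 (-0.073) and Dlg3 (-0.062). Among the pairs averaged, the list's mean log2 level relative to all 36 libraries differed most between trained APP/Tau (-0.095) and trained Tau (0.096). The latter group holds the library labelled Tau trained replicate 4. Trained APP and WT were at 0.022 and 0.043, and naive APP/Tau and Tau at -0.056 and -0.054. Naive APP (0.031) lay above naive WT (0.0036).

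The averaged values of Shank3 had opposite signs for the 2 transgenes, 0.043 with Tau and -0.12 with APP, neither past the test, and the difference between them was not tested. In naive WT its lowest, median and highest values were 233, 259 and 269.7 CPM. The 5 naive APP libraries were at 258, 266, 237, 246 and 239.8 CPM and overlapped WT. The 4 naive Tau libraries were at 273, 270.1, 268 and 266 CPM, in the upper end of the WT range or above it. Naive APP/Tau ran from 224 over a median of 243 to 277 CPM.

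After training the 4 libraries labelled Tau were at 274, 289, 274 and 276 CPM of Shank3. They lay above all 5 WT trained libraries, which were at 234, 236, 261, 267 and 263 CPM, with a log2 difference of 0.14 ± 0.063 and an adjusted p of 0.272 (0.15 and 0.317 without replicate 4). The 3 APP trained libraries were at 239, 227 and 248 CPM. The 3 APP/Tau trained libraries were at 232, 265 and 203 CPM, a wide spread that reached both below and into the WT range.

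In trained APP mice against trained WT, none of the 37 genes passed, against 0.0276% of all genes, and 1 was lower and 0 higher at an unadjusted p under 0.05, against 2.2% and 3.64% of all genes. It was Iqsec2, which activates Arf6 at the postsynaptic density and is mutated in X-linked intellectual disability. WT trained libraries were at 220.3, 215, 189, 197 and 217 CPM of Iqsec2, and the 3 APP trained libraries at 220.1, 142 and 172 CPM, so that 1 APP library matched the highest WT library. The log2 change was -0.22 ± 0.11 with an adjusted p of 0.841. It was -0.40 without APP trained replicate 1 and -0.084 without APP trained replicate 2.

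For Iqsec2 the remaining groups were as follows. Naive WT ran from 155 over a median of 181 to 197 CPM, and naive APP/Tau from 142 over a median of 166 to 196 CPM. The 5 naive APP libraries were at 179, 172, 180.3, 188 and 175 CPM, and the 4 naive Tau libraries at 157, 161, 163 and 178 CPM. The 4 Tau trained libraries were at 226, 232, 191 and 177 CPM, and the 3 APP/Tau trained libraries at 186, 185 and 142 CPM, all 3 below every WT trained library.

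In trained Tau against trained WT none of the 37 genes passed, where 0.303% of all genes did, and 28 of the 37 had values above 0. DESeq2 passed 3 of the 37 and 2.77% of all genes, and limma-voom 6 of the 37 and 5.12% of all genes. At an unadjusted p under 0.05, 10 were higher and 2 lower, against 6.64% and 8.6% of all genes. The higher genes were the adhesion genes Nlgn1 (0.27) and Lrrtm2 (0.20), Cacng8 (0.28), the scaffolds Cnksr2 (0.31), Dlgap1 (0.18), Shank3 (0.14) and Dlg3 (0.12), and Ppp3ca (0.18), Ppp3r1 (0.15) and Ppp1r9b (0.13), as log2 changes. The 2 lower genes were Baiap2 (-0.30) and Shank2 (-0.27). The groups did not overlap for 7 higher and 2 lower genes of the 37, against 2.95% and 4.04% of all genes, and the median over the list was 0.074 against 5.2e-05 over all genes. Without the library labelled Tau trained replicate 4, 6 were higher and 2 lower at an unadjusted p under 0.05, against 6.34% and 7.67% of all genes, and the median was 0.075. The median was 0.045 without WT trained replicate 4 and 0.047 without Tau trained replicate 2.

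Marker levels of other cell types differed in this comparison too. Of 8 oligodendrocyte markers 6 were higher and 0 lower at an unadjusted p under 0.05 (median 0.43), with summed levels of 3871 to 5794 CPM in Tau trained and 3215 to 4081 CPM in WT trained libraries. The list of disease-associated microglia had 1 of 8 higher (median 1.75), with summed levels of 110.4 to 140 and 89.1 to 104 CPM, which do not overlap, and 1 of its markers was at 0 in a WT trained library. Of 8 striatal markers 6 were lower (median -0.88), with summed levels of 153 to 191 and 157 to 570 CPM. The value of 570 CPM was WT trained replicate 4. The other WT trained libraries were at 157 to 179 CPM, inside the range of Tau trained. The part of these levels in the result was not tested.

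Nlgn1, the neuroligin of excitatory synapses, had the smallest p there. The 4 Tau trained libraries were at 139.6, 135, 134 and 154 CPM. The 5 WT trained libraries were at 105, 112, 126, 104 and 134 CPM, all below Tau trained, the nearest pair by less than 1 CPM. The log2 change was 0.27 ± 0.077 with an adjusted p of 0.0915, and 0.23 ± 0.082 with an adjusted p of 0.200 when replicate 4 of the libraries labelled Tau trained, the one at 154 CPM, was left out. Without WT trained replicate 5, whose endothelial markers were low, 3 of the 37 genes passed, Nlgn1, Lrrtm2 and Cacng8. The share of all genes passing in that fit is not given here, so the count cannot be set against it. The adjusted p of Nlgn1 over all alternatives ran from 0.0133 to 0.319.

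In the other groups the values of Nlgn1 overlapped those of naive WT. Naive WT ran from 107 over a median of 118 to 134 CPM, and naive APP/Tau from 104 over a median of 116 to 136 CPM. The 4 naive Tau libraries were at 126, 117, 132 and 121 CPM, and the 5 naive APP libraries at 117, 127, 127, 139 and 132 CPM. The 3 APP trained libraries were at 124, 109 and 127 CPM, and the 3 APP/Tau trained libraries at 104, 119 and 104 CPM.

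Trained mice with both transgenes had the lowest mean log2 level of the list among the 8 groups. Relative to all 36 libraries it was -0.095 ± 0.11 (SD, n = 3), against -0.056 ± 0.080 in naive APP/Tau (n = 6). That difference lay within their SDs, and the lowest single library was APP/Tau naive replicate 6. Against trained WT 35 of the 37 genes were below 0, the exceptions being Camk2g (0.020) and Homer3 (0.016), and the median was -0.13 against -0.0081 over all genes (-0.089 without APP/Tau trained replicate 3). None passed, against 0.0552% of all genes. At an unadjusted p under 0.05, 12 were lower and 0 higher, against 3.4% and 6.82% of all genes. They were 7 of the 16 scaffolds (Baiap2 at -0.31, Dlg4 at -0.18, Dlgap4 at -0.17, Shank2 at -0.27, Dlg2 at -0.17, Dlgap3 at -0.20 and Dlgap2 at -0.20), with Akap5 (-0.27), Nrgn (-0.22), Ppp3r1 (-0.16), Iqsec2 (-0.28) and Synpo (-0.23). None of the 5 adhesion genes and none of the 3 TARP genes was among them. The groups did not overlap for 5 lower genes (Baiap2, Dlg4, Dlgap4, Iqsec2 and Shank2), against 2.31% of all genes.

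The 3 APP/Tau trained libraries were unlike each other. The mean log2 level of the list in a library, minus its mean over all 36 libraries, was -0.11, 0.016 and -0.19 in them, so replicate 2 lay at the level of WT trained libraries (0.00061 to 0.10) and the others below. Replicate 3 held the lowest value of all 36 libraries for 7 of the 37 genes, as did APP/Tau naive replicate 6, whose mean was -0.20. APP/Tau trained replicate 3 also had the lowest summed pyramidal level of all 36 libraries (632 CPM). Its summed level of thalamic and habenular markers was the highest (380 CPM), and the part of that level in the result was not tested. In the comparison of trained APP/Tau with trained WT 8 of 8 oligodendrocyte markers were higher at an unadjusted p under 0.05 (median 0.56), and the dentate list had 3 of 8 lower (median -0.22). The summed oligodendrocyte level was 5199 to 5689 CPM in APP/Tau trained and 3215 to 4081 CPM in WT trained libraries, and its part in the result was not tested.

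**Figure D3:**
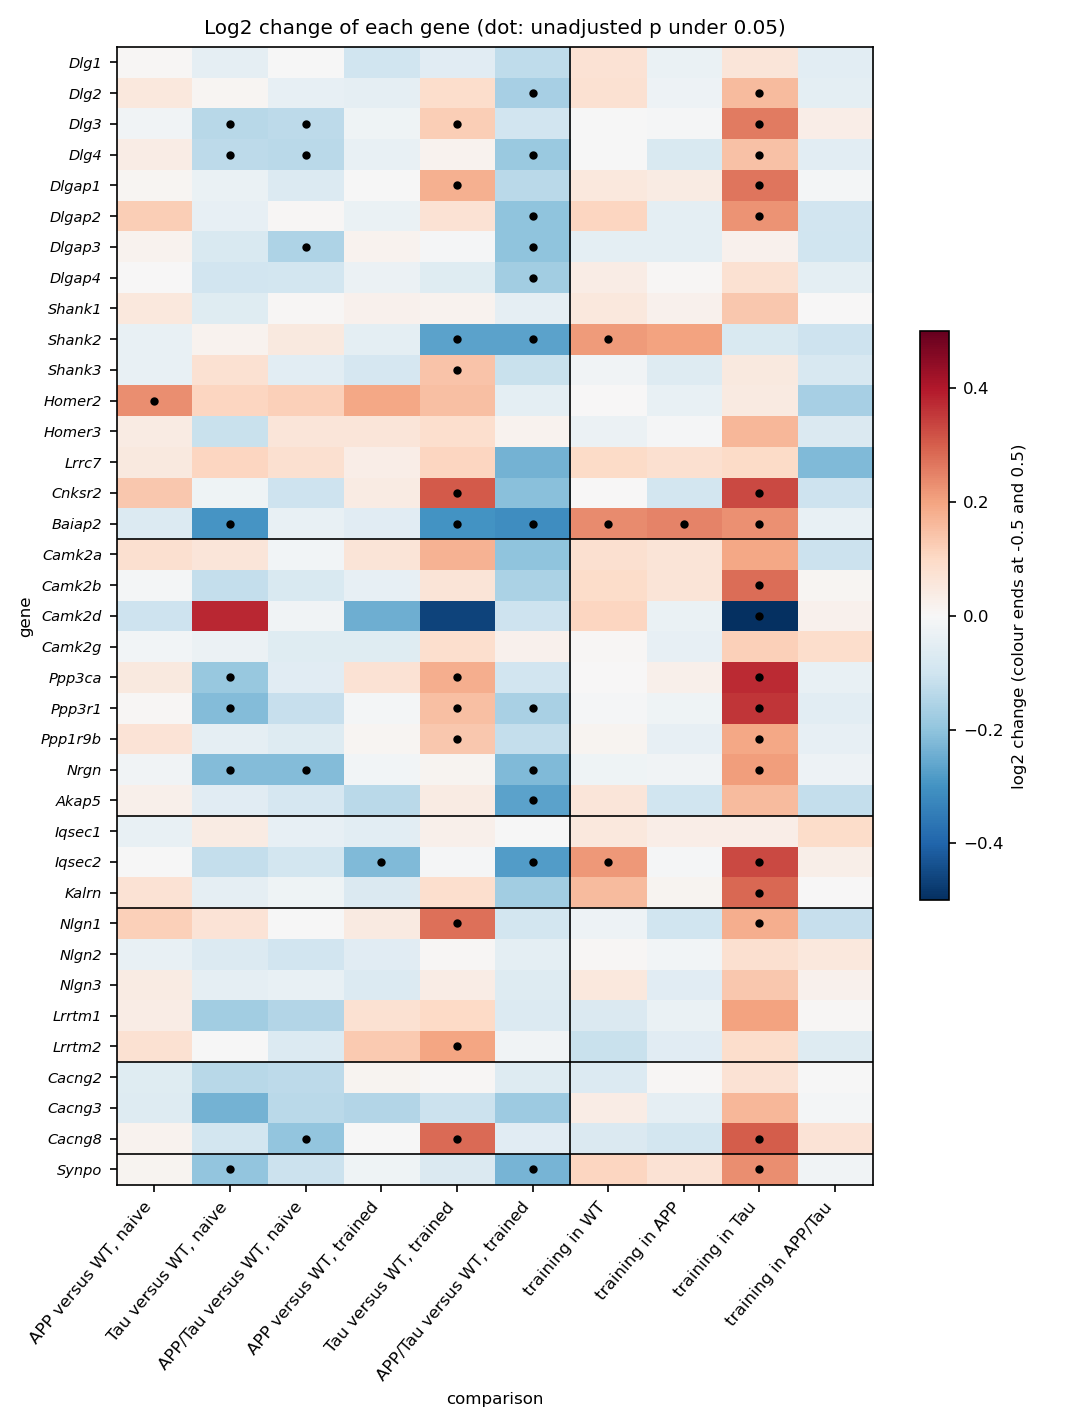
Log2 change (colour, ending at -0.5 and 0.5) of each of the 37 genes (rows, grouped by role) in 6 comparisons of a genotype with WT and 4 of trained with naive mice (columns); a dot marks an unadjusted p under 0.05. The column for trained APP/Tau against WT is mostly blue, with 12 dots, and the column for training in Tau mostly red, with 18.

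Of the 37 genes 35 had values above 0 in trained against naive Tau mice, the exceptions being Shank2 (-0.075) and Camk2d (-0.73), and the median log2 change was 0.17 against -0.013 over all genes. None passed, as 0% of all genes did, and the smallest adjusted p of any gene in the table was 0.0579, which was that of Ppp3r1. DESeq2 passed 4 of the 37 genes here and 2.12% of all genes, and limma-voom 8 of the 37 and 3.07% of all genes. At an unadjusted p under 0.05, 17 were higher and 1 (Camk2d) lower, against 6.85% and 7.75% of all genes. The groups did not overlap for 13 genes, all higher, against 5.65% of all genes higher. Both naive and trained groups here held 4 libraries. Every trained Tau library had a lower library number than every naive one. Between these groups, library number and training therefore cannot be told apart.

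Both calcineurin subunits were among the leading genes. Ppp3r1 was at 1056, 962, 893 and 976 CPM in the naive Tau libraries and at 1245, 1236, 1188 and 1317 CPM in the trained ones, with no overlap and a log2 change of 0.36 ± 0.075. Ppp3ca was at 1949.7, 1655, 1459 and 1751 CPM in naive Tau and at 2144, 2251, 2147 and 2274 CPM in trained Tau, again with no overlap, with a log2 change of 0.37 ± 0.091 and an adjusted p of 0.0817. In WT the changes of the 2 genes with training were -0.0071 and 0.0015. These include WT trained replicate 4, the library with high striatal markers, at 944 CPM of Ppp3r1 and 1572 CPM of Ppp3ca. The other WT trained libraries were at 1134 to 1185 and 1977 to 2061 CPM. WT changes of the 2 genes without that library are not given here.

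For Ppp3r1 all APP/Tau libraries, naive and trained, lay below the naive WT median. The naive APP, WT trained and APP trained libraries lay on both sides of it. Naive WT had a lowest, median and highest value of 1025, 1139 and 1215 CPM, and naive APP/Tau of 892, 1065 and 1134 CPM. Naive APP libraries were at 1087, 1136, 1219, 1177 and 1048 CPM. WT trained libraries were at 1179.9, 1134, 1175, 944 and 1185 CPM, where the low value is WT trained replicate 4. APP trained libraries were at 1048, 1163 and 1139 CPM and APP/Tau trained libraries at 909, 1113 and 991 CPM.

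Dlg3 had the smallest p of the scaffolds in this comparison and Cacng8 that of the TARPs, and neither passed. Dlg3 was at 209.6, 174, 190.1 and 187 CPM in naive Tau and at 222, 242, 216 and 230.4 CPM in trained Tau, with a log2 change of 0.26 ± 0.061 and an adjusted p of 0.0763. Cacng8 was at 179.9, 142, 159 and 166 CPM in naive Tau and at 198, 208, 189.6 and 203 CPM in trained Tau, with a change of 0.30 ± 0.087 and an adjusted p of 0.114. Every trained library of both genes was above every naive one. By role, 7 of the 16 scaffolds were higher at an unadjusted p under 0.05, as were 5 of 9 kinase and phosphatase genes, 2 of 3 exchange factors, 1 of 5 adhesion genes and 1 of 3 TARPs, against 6.85% of all genes.

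Cacng8 in the groups not yet given showed no such separation. WT trained libraries were at 158, 167, 177, 134 and 185 CPM, all below Tau trained. Naive APP libraries were at 171, 156, 167, 191 and 188 CPM. APP trained libraries were at 172, 158 and 161 CPM, and APP/Tau trained libraries at 151, 178 and 143 CPM.

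**Figure D4:**
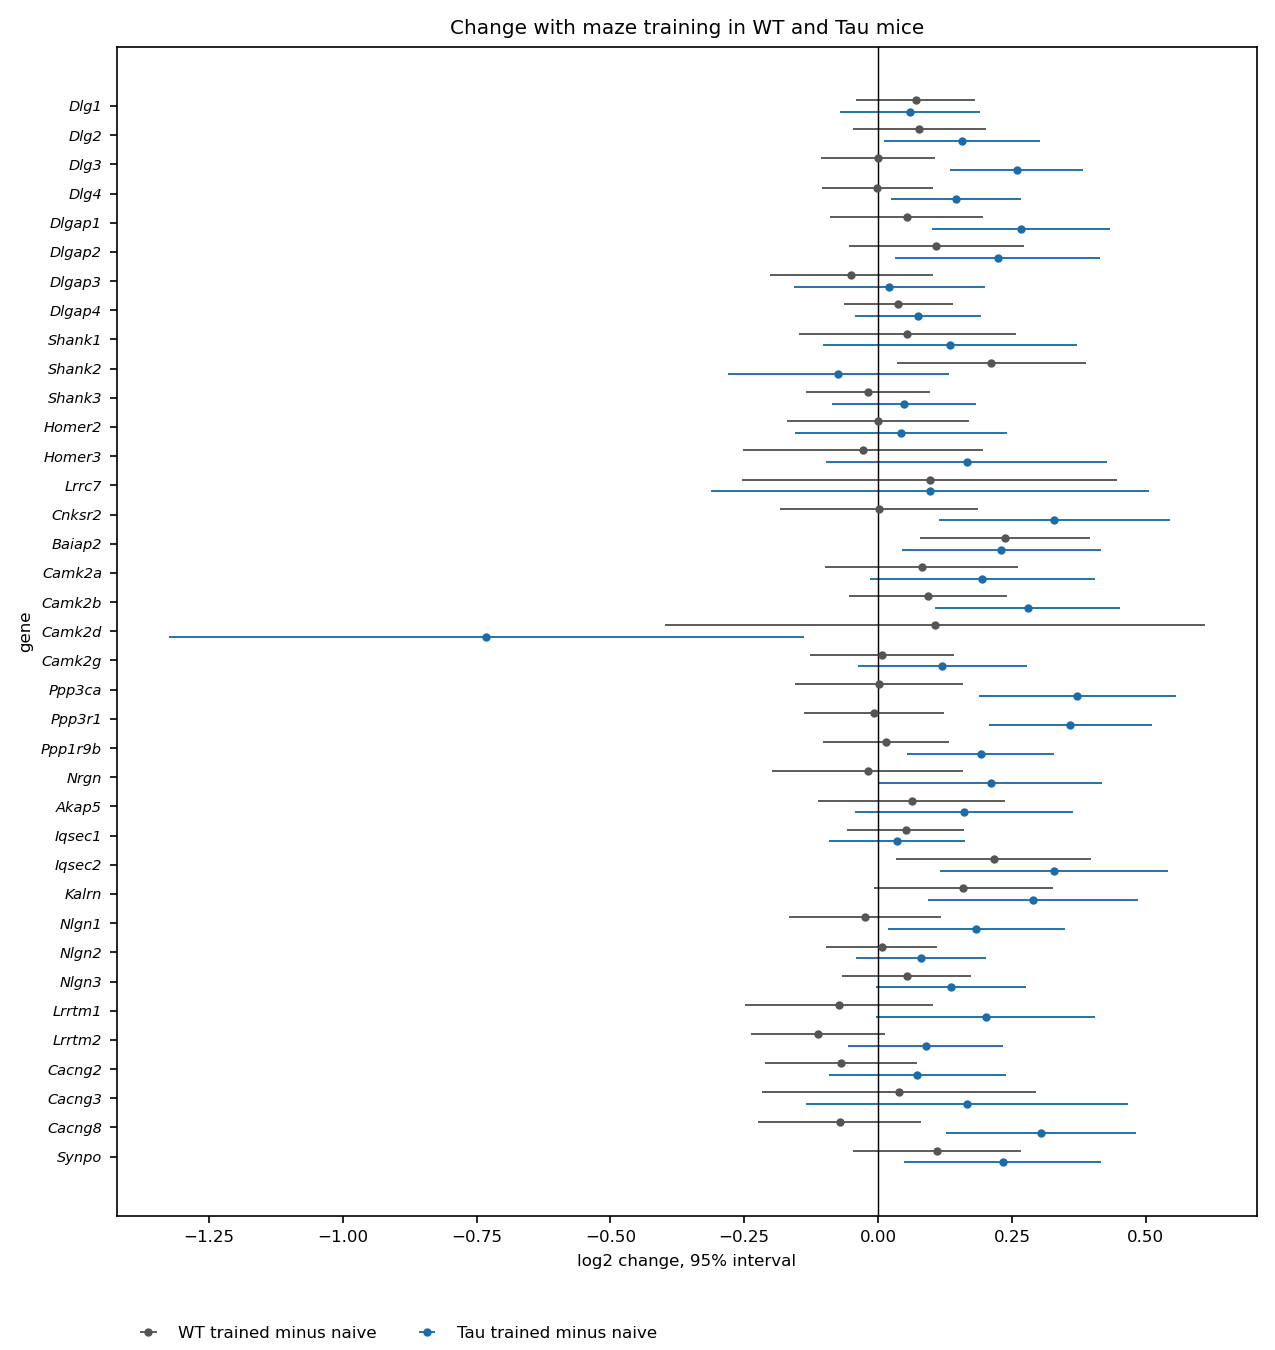
Log2 change with training (horizontal axis, with its 95% interval) of each of the 37 genes (vertical axis) in WT mice (grey) and Tau mice (blue). Ppp3r1 sits at -0.0071 in WT and 0.36 in Tau, and Baiap2 at 0.24 in WT and 0.23 in Tau.

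Markers of 2 neuron types moved with the training comparison in Tau mice. All 8 dentate granule markers were higher at an unadjusted p under 0.05 (median 0.50), with a summed level of 242 to 362 CPM in naive and 422 to 527 CPM in trained Tau libraries. Of 10 pyramidal markers 6 were higher (median 0.27), with summed levels of 729 to 816 and 853 to 934 CPM. All 8 choroid plexus markers were lower (median -3.06), with summed levels of 1360.2 to 3735 and 89.4 to 583 CPM. The thalamic and habenular markers had summed levels of 151 to 377 CPM in naive and 140 to 171 CPM in trained Tau libraries, which overlap. The part of these thalamic levels in the result was not tested. With the pyramidal and dentate scores as covariates the median over the 37 genes was 0.10, and 4 were higher at an unadjusted p under 0.05, against 6.27% of all genes in either direction. With the choroid plexus score as a covariate 9 were higher and 1 lower, against 9.55% of all genes in either direction. No covariate fit passed any of the 37.

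The values for training in Tau mice were also taken without single libraries. Without the library labelled Tau trained replicate 4, 14 genes were higher and 0 lower at an unadjusted p under 0.05, against 13.1% of all genes in either direction, the median was 0.16, and Ppp3r1 had a change of 0.33 with an adjusted p of 0.138. Without Tau naive replicate 1, 3 genes passed, Ppp3r1, Dlg3 and Ppp3ca, and the share of all genes passing in that fit is not given here. Over all alternatives the log2 change of Ppp3r1 ran from 0.16 to 0.40 and its adjusted p from 0.00747 to 0.789. The mean level of the list was -0.12 to -0.0025 in the 4 naive and 0.048 to 0.15 in the 4 trained Tau libraries, so no library of one group reached the other.

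**Figure D5:**
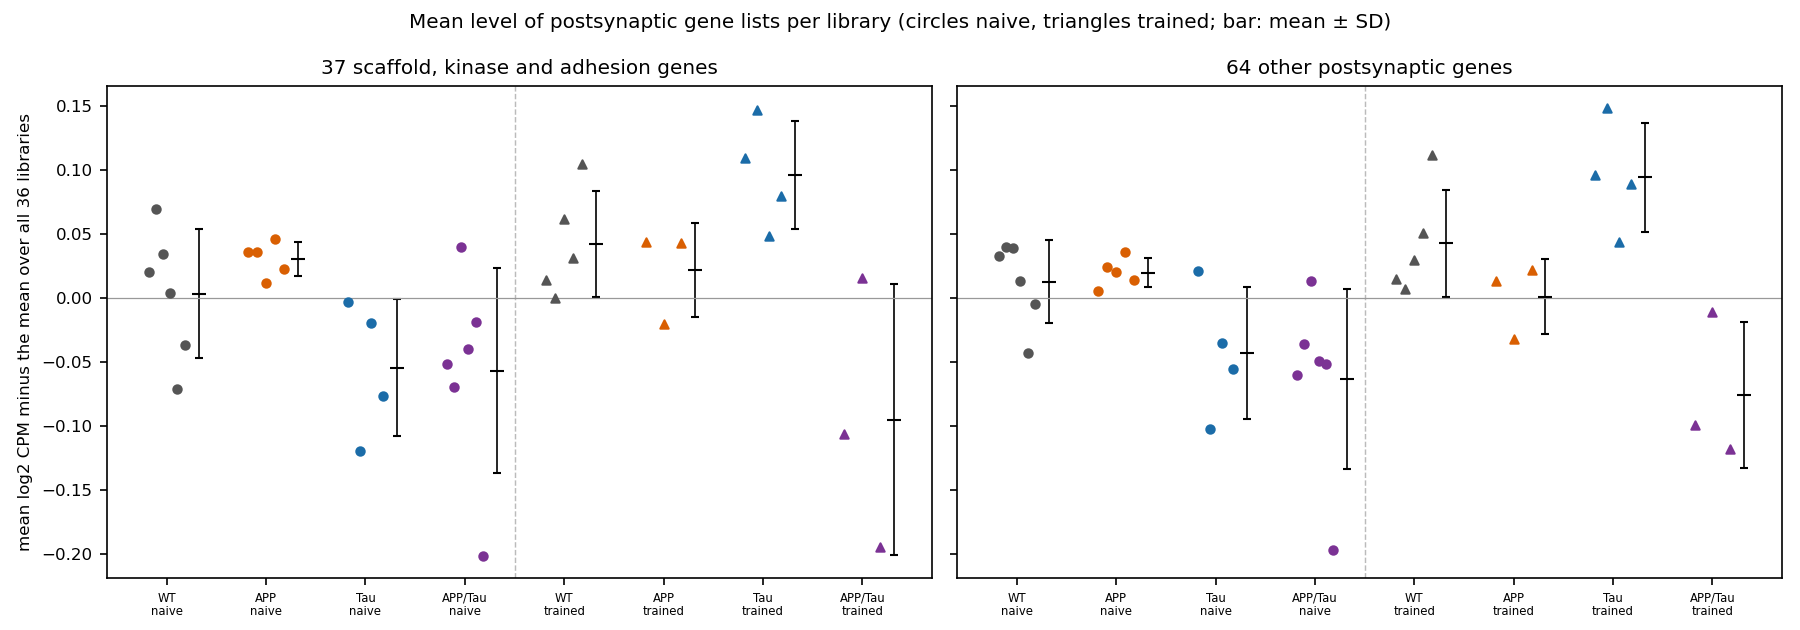
Mean log2 CPM of the 37 genes (left) and of 64 other postsynaptic genes (right) in each library minus the mean over all 36 libraries (vertical axis), by genotype and training (horizontal axis); circles are naive and triangles trained libraries, and the bar beside each group is its mean ± SD. The 4 Tau trained libraries lie at 0.048 to 0.15 for the 37 genes, above the 4 Tau naive ones at -0.12 to -0.0025.

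In the other genotypes the median over the list lay nearer to 0. In WT none of the 37 passed, as 0% of all genes did, and 3 were higher and 0 lower at an unadjusted p under 0.05, against 3.05% and 2.81% of all genes. They were Baiap2 (0.24 ± 0.078), Shank2 (0.21) and Iqsec2 (0.22), and the median over the list was 0.038, and 0.0095 without WT naive replicate 5. In APP mice none passed, as 0% of all genes did, and 1 was higher and 0 lower, against 3.42% and 1.81% of all genes; it was Baiap2 at 0.25 ± 0.094, and the median was -0.022, or 0.0024 without APP trained replicate 2. In APP/Tau mice none passed, as 0% of all genes did, and 0 were higher and 0 lower at an unadjusted p under 0.05, against 1.72% and 1.36% of all genes. The median was -0.038, and 0.018 without APP/Tau trained replicate 3. Homer2 had the smallest p there, with a log2 change of -0.17 ± 0.098, which was -0.087 without APP/Tau trained replicate 1 and -0.29 without APP/Tau trained replicate 2.

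Homer2 varied among trained libraries. The 3 APP/Tau trained libraries were at 91.5, 119.7 and 97.3 CPM, against a lowest, median and highest value of 104, 114 and 132 CPM in naive APP/Tau. The 3 APP trained libraries were at 112, 104 and 149 CPM, and the 5 WT trained libraries at 95, 105, 121, 98.3 and 112 CPM. The 4 naive Tau libraries were at 126, 113, 109.5 and 109 CPM and the 4 Tau trained libraries at 116, 119, 114 and 122 CPM.

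Averaged over the 4 genotypes, 31 of the 37 genes were above 0 with training, with a median of 0.038 against 0.0022 over all genes (0.019 without APP/Tau trained replicate 2). None passed, as 0% of all genes did, and 8 were higher and 0 lower at an unadjusted p under 0.05, against 3.82% and 4.13% of all genes. Baiap2 led with 0.17 ± 0.044 (adjusted p = 0.436), followed by Iqsec2 (0.14), Camk2b (0.11), the Rac exchange factor Kalrn (0.12), Dlg3 (0.072), Synpo (0.10), Dlgap1 (0.087) and Ppp3ca (0.090). Camk2b was at 1212, 996, 942 and 1144 CPM in naive Tau and 1174, 1463, 1313 and 1260.2 CPM in trained Tau, which overlap.

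The difference in training response between Tau and WT mice was tested as an interaction. None of the 37 passed, as 0% of all genes did, and 7 were higher and 2 lower at an unadjusted p under 0.05, against 4.6% and 4.44% of all genes. Ppp3r1 had the smallest p, with an interaction of 0.37 on the log2 scale (95% interval 0.17 to 0.57, adjusted p = 0.368), followed by Cacng8 (0.38), Dlg3 (0.26) and Ppp3ca (0.37). WT trained replicate 4 was the lowest WT trained library for each of these genes. Their interactions without it are not given here. Baiap2 had an interaction of -0.0069, with an interval of -0.25 to 0.24. Without the library labelled Tau trained replicate 4, 7 were higher and 0 lower, against 3.96% and 4.32% of all genes, and Ppp3r1 had an interaction of 0.34 with an adjusted p of 0.515. For APP/Tau the interaction gave 0 higher and 2 lower (Shank2 at -0.32 and Baiap2 at -0.27), against 2.43% and 1.71% of all genes, and for APP 0 higher and 0 lower, against 1.66% and 1.01% of all genes. None passed in either, as 0% of all genes did.

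Whether both transgenes together departed from the sum of each was tested within naive and within trained mice. In trained mice none of the 37 passed, against 0.0118% of all genes, and 11 were lower and 0 higher at an unadjusted p under 0.05, against 4.63% and 4.76% of all genes. The median over the list was -0.19 on the log2 scale, against -0.00023 over all genes. Cnksr2, a scaffold of Ras signalling, was lowest among those with a small p at -0.56 ± 0.16 (adjusted p = 0.432), and Nlgn1 followed at -0.41 ± 0.12 (adjusted p = 0.436). The median was -0.12 without APP/Tau trained replicate 3, -0.25 without APP/Tau trained replicate 2 and -0.10 with the pyramidal and dentate scores as covariates. With the library labelled Tau trained replicate 4 left out the median was -0.19, with 10 lower and 0 higher against 4.19% and 4.1% of all genes, and the values of Cnksr2 and Nlgn1 were -0.55 and -0.37. In naive mice none passed, as 0% of all genes did, and 1 (Baiap2 at 0.33 ± 0.11) was higher and 0 lower, against 4.3% and 2.83% of all genes.

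A second list of 64 other postsynaptic genes (receptor partners, further scaffolds, exchange factors and actin regulators) gave like values, as the plot of list levels by library shows. In trained against naive Tau mice 0 passed, and 30 of the 64 were higher and 2 lower at an unadjusted p under 0.05, against 6.85% and 7.75% of all genes, with a median of 0.17. Without the library labelled Tau trained replicate 4 these were 27 and 1, against 6.29% and 6.78% of all genes. In trained APP/Tau against WT 0 were higher and 17 lower, against 6.82% and 3.4% of all genes, with a median of -0.12. In Tau carriers averaged 1 was higher and 15 lower, against 7.29% and 5.87% of all genes, with a median of -0.047.

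Tiam1, an exchange factor that activates Rac in spines, was the only one of these 64 genes to pass in any comparison. It fell in APP carriers averaged, with a log2 change of -0.32 ± 0.043 and an adjusted p of 6.16e-05. It was at 130.4 ± 9.61 CPM in naive WT (n = 6), 119 ± 8.97 CPM in naive APP (n = 5), 130 ± 15.7 CPM in naive Tau (n = 4) and 104 ± 9.54 CPM in naive APP/Tau (n = 6). In trained mice it was at 134 ± 14.9 CPM in WT (n = 5), 111 ± 11.0 CPM in APP (n = 3), 149 ± 9.73 CPM in Tau (n = 4) and 103 ± 4.40 CPM in APP/Tau (n = 3). Tiam1 lies on chromosome 16, where Usp16 was at 12.9 to 14.9 CPM in the 17 libraries of APP carriers and 24.8 to 30.3 CPM in the other 19. By gene order in GRCm38.p6, 64 protein-coding genes lie between Tiam1 and Usp16, a count that gives no distance in bases. Whether the lower levels of these genes are linked was not tested.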

How the data were processed

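Bulk RNA was measured in 36 hippocampal input libraries in 8 groups of genotype and training. The authors deposited raw counts per gene symbol as whole numbers. Trimmomatic 0.39 and the build mm39 are named in the submitters' processing notes, and the aligner, counter, annotation and use of strand were not given in the sources used here. Genes passing filterByExpr by group (minimum count 10, minimum total 15) were fitted with edgeR 4.0.16 in R 4.3.3: TMM scaling, a mean per group, robust quasi-likelihood fit and test over all 36 libraries, with Benjamini-Hochberg adjustment over all 25382 genes in each of 18 comparisons at 0.05. CPM values are deposited counts per M of the TMM-scaled total. Means carry the SD between libraries. Nothing in the labels ties each sample to a separate mouse, and p-values then measure only the spread between samples, which may be technical. No library pair of a group looked like a repeat (68 pairs, chi-square per degree of freedom 14.4 to 157).

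The members, gene lists and tests were chosen with earlier results of these data known. Sample values are given for members that passed in any comparison and for the member with the smallest p in each of the 13 comparisons that are no interaction or non-additivity test. Dlg3, Ppp3ca, Camk2b, Camk2d and Tiam1 are also given by library or group; apart from Tiam1, which passed, these were chosen after their values were seen. Exon lengths come from GENCODE vM21 (GRCm38) and promoter windows from RefSeq (GRCm38.p6). The fit was tested on simulated counts. Alternatives were RLE size factors, no low-count filter, replicate number as a block, library number, choroid plexus or pyramidal and dentate scores as covariates, DESeq2 1.42.0, limma-voom with quality weights (limma 3.58.1), only the groups compared, and each library left out. Added after the data were seen were edgeR's older quasi-likelihood method and a fit without 2 doubted libraries.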

Additional observations from a re-analysis of the deposited data

Results flagged for a closer look

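Among 48 sets of values (the 7 genes given by library and the mean level of the list, in the groups of 4 to 10 libraries), 2 held a library far from the others, near the 1 in 20 that chance gives. Ppp3r1 was at 944 CPM in WT trained replicate 4, against 1134 to 1185 CPM in the other 4 WT trained libraries. That library also had the high striatal markers. Shank3 was at 289 CPM in Tau trained replicate 2, against 274 to 276 CPM in the other 3 Tau trained libraries. No interaction passed the test for any of the 37 genes.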

How the results depend on the processing

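Signs of single genes were followed for the member with the smallest p in each comparison that is no interaction or non-additivity test. These log2 changes kept their sign under every alternative run. Signs of the other log2 changes were not followed. The median over the list changed sign in 3 comparisons. In naive APP against WT (0.018) it was -0.0025 with the replicate number as a block and -0.0023 without WT naive replicate 5. For training in APP (-0.022) it was 0.0024 without APP trained replicate 2, and for training in APP/Tau (-0.038) it was 0.018 without APP/Tau trained replicate 3. In trained Tau against trained WT, 0 of the 37 genes passed, and 1 passed with the library number as a covariate, 3 with DESeq2, 6 with limma-voom, 1 with only the groups compared, and 0 to 3 when leaving out 1 library (3 without WT trained replicate 5). For training in Tau, 0 passed, and 4 passed with DESeq2, 8 with limma-voom, 1 with only the groups compared, and 0 to 3 when leaving out 1 library (3 without Tau naive replicate 1). In Tau carriers averaged, 1 passed, and 0 passed with pyramidal and dentate covariates, 4 with DESeq2, and 0 to 3 when leaving out 1 library (3 without WT naive replicate 6 or APP/Tau trained replicate 2; 2 without Tau naive replicate 1 or 3, APP/Tau naive replicate 3 or APP trained replicate 3; 0 without Tau naive replicate 2, APP trained replicate 1 or APP/Tau trained replicate 3). In the other 15 comparisons 0 passed under every alternative, DESeq2 and limma-voom included. Shares of all genes passing are not given for the library number, the groups compared alone or most fits without 1 library. The counts passing in those fits therefore cannot be set against all genes. The median over the list moved to -0.072 for trained APP/Tau against WT with limma-voom, and with pyramidal and dentate covariates to 0.10 for training in Tau, -0.10 for non-additivity in trained mice and 0.053 for the Tau interaction. Leaving out 1 library gave -0.25 to -0.12 for non-additivity in trained mice and -0.12 to -0.012 for the APP/Tau interaction. The cause was not tested. For averaged comparisons a fit on only the groups compared gives nothing else, since all groups enter.

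The replicate numbers did not pair the libraries: deviations of same-numbered libraries of different groups had a median correlation of -0.029 over 106 pairs, against -0.00043 over 456 pairs with different numbers. With the replicate number as a block the Baiap2 change in Tau carriers was -0.21 with an adjusted p of 0.0177, and 1 of the 37 genes passed there.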
